A study of Mus musculus with 11 samples.

Results

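The replication-dependent histone genes were examined in RNA-seq counts from the hippocampi of F1 mice at 14 weeks of age. All mice were wildtype offspring of 129S6/SvEv dams and C57BL/6J sires. CD mice (n = 6, 3 males and 3 females) came from dams whose diet held 2.3 mg of folic acid per kg, and FD mice (n = 5, 2 males and 3 females) came from dams fed 40 mg per kg before mating, and all dams received the control diet from mating onwards. The genes were those annotated as protein-coding in GENCODE release M21 with a symbol that begins with Hist1h, Hist2h, Hist3h or Hist4h, and with at least 10 counts over the 11 mice. This gave 25 genes out of 20589 genes with at least 10 counts. The comparison asked whether the excess of folic acid that the dams ate before mating left a difference in the offspring's hippocampus.

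Replication-dependent histone genes encode the core histones H2A, H2B, H3 and H4, which make up the nucleosome, and the linker histone H1. They lie in clusters and are transcribed mainly in S phase, when new DNA is packed into chromatin. Their mRNAs end in a stem-loop that the protein SLBP binds, in place of a poly(A) tail, although some of the genes can also give polyadenylated mRNAs, which have been described in differentiated cells. Most hippocampal cells of an adult mouse no longer divide, apart from glial precursors and the progenitors of the dentate gyrus.

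The stem-loop is the sequence by which these mRNAs are recognised, so its forms are given first. After the stop codon of the GENCODE transcripts, the stem-loop was searched for as GG, 2 free bases, CTTTT, 1 free base, AG, 2 free bases and CC. It was found in 19 of the 25 genes. Among transcripts of other protein-coding genes with at least 50 bases after the stop codon, it was found in 44 of 49947, or 0.088%. The 8 histone genes of these families that were not matched to the count tables were not left out of that set. Of the 25 genes, 21 had at least 50 bases annotated after the stop codon, and the stem-loop was found only among these. Over all 40 histone genes in which it was found, the stem could pair 6 bases on each side, and it began 22 to 59 bases after the stop codon. It is printed 5′ to 3′ as DNA, with the paired bases of the stem in capitals and the loop in lower case.
Hist3h2a, Hist1h1c, Hist3h2ba, Hist1h2be, Hist2h3c2, Hist1h2ac, Hist1h2bg, Hist1h1e, Hist1h1d, Hist1h2ae and Hist1h2ad: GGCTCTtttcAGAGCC
Hist2h4 and Hist1h4i: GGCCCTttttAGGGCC
Hist1h4h, Hist1h4c and Hist4h4: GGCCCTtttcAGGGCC
Hist1h4j: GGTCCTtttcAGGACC
Hist2h2ac: GGCTCTttttAGAGCC
Hist1h2bb: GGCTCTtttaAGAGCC
The first form was carried by 11 of the 25 genes, and none of those 11 encodes H4. The search found no match in the annotated transcripts of Hist1h2bc and Hist2h2be, which are among the genes with the most counts.

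Of 67 protein-coding genes of these families in the annotation, 59 were matched to the count tables and 8 were not analysed here. For H3 only 7 of 12 genes were matched and for H2B 15 of 18, and for H1, H2A and H4 all were. The H3 counts therefore cover only part of that family. Among the 59 genes, 25 had at least 10 counts, 17 had 1 to 9 counts and 17 had no count in any mouse. Together the 25 genes held 18772 counts, a mean of 73.2 CPM per mouse (counts scaled to the size of each library, TMM-normalised), and the 34 genes below the minimum held 58 counts. The counts were spread very unevenly: 63.3% fell on the 3 most counted genes, 91.2% on 6 genes and 97.7% on the 10 genes with at least 100 counts. By histone, 9105 counts were on 7 H2B genes, 5314 on 6 H2A genes, 3302 on 4 H1 genes, 767 on 7 H4 genes and 284 on 1 H3 gene. By cluster, the Hist1 cluster on chromosome 13 held 9012 counts on 17 genes, the pair of Hist3 genes on chromosome 11 held 6889, the Hist2 cluster on chromosome 3 held 2860 on 5 genes and Hist4h4 on chromosome 6 held 11.

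Histone genes are near copies of one another, and the authors counted only reads with a single place of alignment. Each 50-base window of a gene's transcripts was therefore searched for in the transcripts of other genes, leaving out genes whose exons overlap its own. Windows shared only with such an overlapping gene thus count as found in no other gene. Of the 25 genes, 8 overlap an exon of another gene, 4 of them on the same strand, and their shares can be too high. The median share of windows found in no other gene was 77.9% for the 25 genes and 26.2% for the 34 genes with fewer counts. It was 90.0% for the 10 genes with at least 100 counts and 17.2% for the 17 genes at 0. Genes with under 10% of such windows numbered 7 of the 34 and 0 of the 25. A count near 0 in a gene with few such windows therefore says little about its mRNA. Not all genes at 0 had few: the share was 97.7% for Hist1h2aa, 65.3% for Hist2h3c1 and 60.5% for Hist1h4f. Hist1h2aa and Hist2h3c1 overlap an exon of another gene, so their shares can be too high.

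The annotated 3′ ends also differed between the sets. The annotation ran at least 100 bases beyond the stem-loop in 15 of the 25 genes, in 8 of the 10 genes with at least 100 counts and in 4 of the 34 genes below the minimum. Among these, the annotation went on for 1643 bases in Hist3h2a, 1861 in Hist1h2be and 840 in Hist1h1c. The poly(A) signal AATAAA lay in the last 50 bases of 5 of the 10 genes with at least 100 counts. It lay there in 3 of 24 genes below the minimum with at least 50 bases after the stop codon. Among other protein-coding transcripts, from which the 8 unmatched histone genes were not left out, it was there in 24991 of 49947. Whether these libraries were made from poly(A) RNA is not given in the sources used here, and the part of the 3′ ends or of shared sequence in the counts was not tested.

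**Figure D1:**
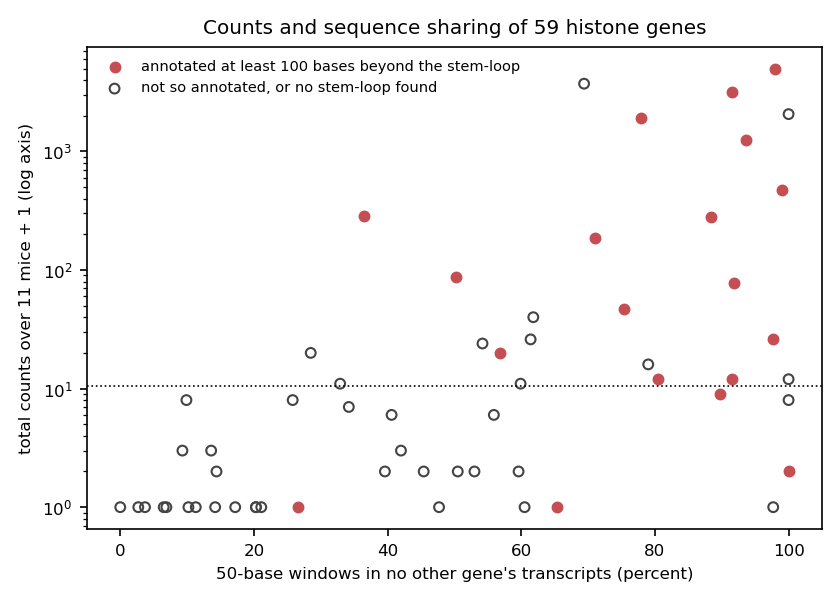
Total counts over 11 mice plus 1 (log axis) against the percentage of a gene's 50-base windows found in no other gene's transcripts, for 59 histone genes. Genes whose exons overlap its own were left out of the search. Filled points are genes annotated at least 100 bases beyond the stem-loop, and the dotted line marks the minimum of 10 counts; all 25 genes above it have at least 28.5% of such windows.

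Many H2A and H2B genes lie head to head and share a short promoter region. In the annotation 12 such pairs, each of an H2A and an H2B gene, had starts 176 to 306 bases apart. The H2B gene had more counts in 8 of the 12 pairs and the H2A gene in 2, and 2 were tied. In 7 pairs both genes had fewer than 10 counts, and in 3 pairs both were among the 25 genes. In the latter the H2B gene had more counts each time, with 3726 counts on Hist1h2bc and 280 on Hist1h2ac, 2063 on Hist2h2be and 25 on Hist2h2ac, and 86 on Hist1h2bg and 19 on Hist1h2ae. The annotated transcripts differ in length. Per kilobase of exon the levels were 12.6 and 0.426, 3.06 and 0.219, and 0.507 and 0.124 CPM, in the same order. Per kilobase of windows found in no other gene they were 18.9 and 0.491, 3.12 and 0.394, and 1.09 and 0.235 CPM. Hist1h2ac, Hist2h2ac and Hist1h2ae each overlap an exon of another gene on the opposite strand, and their H2B partners overlap none. Strand is not given in the sources used here, and whether reads of these H2A genes were set aside as ambiguous was not tested. The shared regions of the first pairs are shown because the genes on their sides differ most in counts. They are printed 5′ to 3′ on the minus strand, from the H2B gene's side to the H2A gene's side, from RefSeq windows on GRCm38.p6, and leave out bases that RefSeq or GENCODE annotates as transcribed. Capitals mark the TATA box core TATAAA, the CCAAT box and the octamer ATTTGCAT, each on either strand.
Hist2h2be to Hist2h2ac, chr3:96220881-96221071: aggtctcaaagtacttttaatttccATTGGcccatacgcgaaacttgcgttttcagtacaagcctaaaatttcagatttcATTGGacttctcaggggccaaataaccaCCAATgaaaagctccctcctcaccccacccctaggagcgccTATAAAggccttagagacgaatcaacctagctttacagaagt
Hist1h2bc to Hist1h2ac, chr13:23683960-23684198: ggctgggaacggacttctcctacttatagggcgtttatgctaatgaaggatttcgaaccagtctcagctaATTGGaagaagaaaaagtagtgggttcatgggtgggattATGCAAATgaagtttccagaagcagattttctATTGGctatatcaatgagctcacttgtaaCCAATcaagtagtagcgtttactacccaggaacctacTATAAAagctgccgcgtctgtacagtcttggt
Each printed stretch held 3 CCAAT boxes and 1 TATA box near the H2A gene. The octamer ATTTGCAT, known as a binding site of Oct1 in H2B promoters, was found in both promoter windows. Between Hist1h2bc and Hist1h2ac it lies within the printed stretch. Between Hist2h2be and Hist2h2ac it lies at chr3:96221073-96221080, just past the printed stretch, in bases that RefSeq annotates as transcribed in Hist2h2be and GENCODE places before its start. RefSeq promoter windows, from 250 bases before to 50 bases after the start, were matched to 22 of the 25 genes. TATAAA was found in 15 of the 22 and in 13.6% of 32851 windows of all genes, and CCAAT in 17 of the 22 and in 37.4% of all windows. The octamer was found in 8 of 11 H2A and H2B genes, in 0 of 4 H1 genes and 0 of 6 H4 genes, and in 1.7% of all windows. These matches are descriptions of the letters and not of bound sites.

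The levels of the genes formed wide steps. Hist3h2a, an H2A gene at chr11:58954685-58956830, had the highest mean level at 19.6 CPM, followed by Hist1h2bc (chr13:23684199-23692908) with 14.5 and Hist1h1c, a linker histone gene (chr13:23738808-23740367), with 12.3. Hist2h2be had 8.01 CPM, Hist3h2ba 7.47 and Hist1h2be 4.98. Below these lay Hist2h4 with 1.84 CPM, Hist2h3c2 with 1.08, Hist1h2ac with 1.06 and Hist1h4i with 0.691. The ranges over mice of neighbours in this order overlapped for Hist1h2bc with Hist1h1c, for Hist2h2be with Hist3h2ba, for Hist3h2ba with Hist1h2be and from Hist2h4 through to Hist1h4i. Per kilobase of exon the order changed, with 12.6 CPM per kb for Hist1h2bc, 12.2 for Hist3h2ba, 9.11 for Hist3h2a and 7.88 for Hist1h1c. Hist1h2be had 1.12 CPM per kb on this scale, and its annotated exons overlap those of Hist1h1e on the same strand, so that reads there cannot be told apart. Exons of Hist3h2a overlap those of Trim17 on the same strand, and counts of both are uncertain to that extent.

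The coefficient of variation over the 11 mice lay between 5.52% and 16.4% for the 6 most counted genes. Counting error alone would give 5.13% to 10.2% at their depth. Hist3h2a varied by 5.52% with 5.13% from counting, and Hist2h2be by 5.97% with 7.95%, so that their spread was about that of counting. Hist1h2bc varied by 11.8% with 5.92% from counting and Hist1h1c by 14.8% with 6.4%, more than counting gives. The 15 genes with fewer than 100 counts had 10 to 86 counts in total, and 11 of the 25 had at most 3 counts in 6 or more mice.

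No histone gene passed the test for a difference by maternal diet. After Benjamini-Hochberg adjustment over 20589 genes (edgeR, quasi-likelihood), 0 of the 25 genes passed an adjusted p of 0.1, against 14 genes or 0.068% of all genes. At an unadjusted p under 0.05 the counts were 0 of 25 and 2.59% of all genes, and DESeq2 also gave 0 of 25 at that level. The values of CD and FD mice overlapped in every one of the 25 genes and were apart in 0.505% of all genes. The log2 difference was above 0 in 13 of the 25 and in 48.2% of all genes, and its median was 0.02 for the 25 genes and -0.004 for all genes. Mice may share litters, which the labels do not give, so that p-values count each mouse as independent.

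The H2A gene Hist3h2a had a lowest value of 18.4, a median of 19.2 and a highest value of 20.1 CPM in CD mice. In FD mice it had 17.9, 19.6 and 21.6 CPM in the females and 21.1 and 19.6 in the males. The FD values reached both below and above those of the CD group. Hist3h2a differed by a log2 of 0.05 (SE 0.064), with a 95% interval of the fold from 0.945 to 1.14 (edgeR, adjusted p = 1.0).

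Among the H2B genes, Hist1h2bc had 11.9, 13.8 and 17.3 CPM as lowest, median and highest value in CD mice. In FD mice Hist1h2bc had 15.0, 15.3 and 15.7 CPM in the females and 12.8 and 15.1 in the males, and all of these lay within the CD range. Hist2h2be had 6.91, 7.9 and 8.42 CPM in CD mice, and 8.57, 8.07, 8.2, 7.85 and 8.27 in FD mice. Hist3h2ba, the H2B gene next to Hist3h2a, had 7.07, 7.51 and 8.79 CPM in CD mice, and 8.08, 6.85, 7.54, 7.14 and 6.36 in FD mice, of which 2 lay under the lowest CD value. Hist1h2be had 3.87, 4.93 and 6.91 CPM in CD mice and 4.62, 4.95, 4.72, 5.47 and 4.74 in FD mice, a narrower range within that of the CD group.

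The linker histone gene Hist1h1c had 9.99, 12.7 and 15.6 CPM as lowest, median and highest value in CD mice. In FD mice Hist1h1c had 13.8, 11.3 and 12.3 CPM in the females and 9.47 and 12.2 in the males, so that 1 FD male lay just under the CD range. Its log2 difference was -0.10 (SE 0.116), with a 95% interval of the fold from 0.789 to 1.11. Over the 6 most counted genes the log2 differences ran from -0.10 to 0.06, and the 95% intervals of the fold all lay between 0.789 and 1.19.

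**Figure D2:**
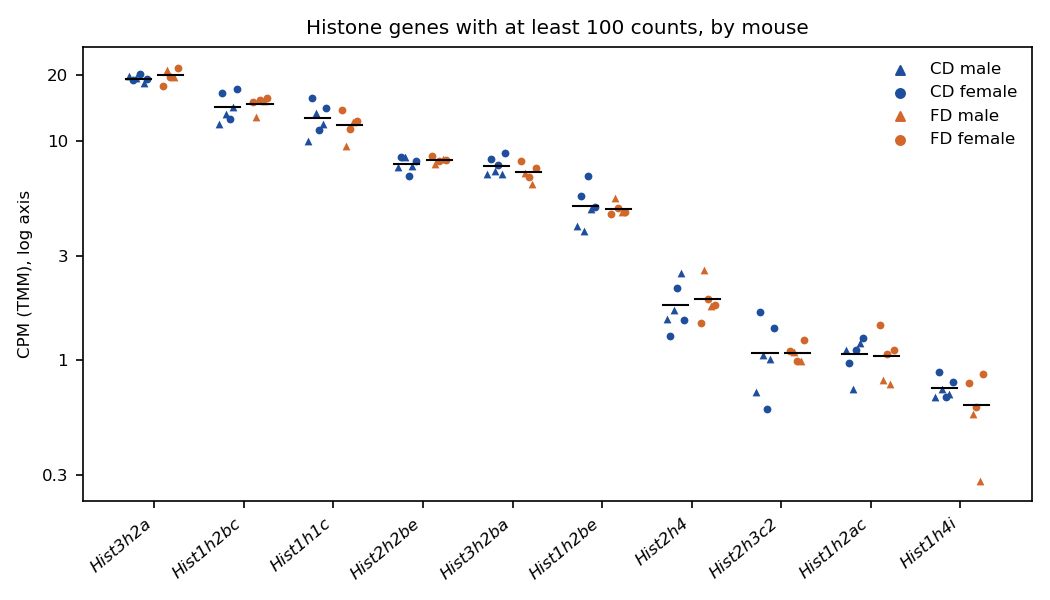
CPM (TMM-normalised, log axis) of the 10 histone genes with at least 100 counts in each mouse, with CD in blue, FD in orange, triangles for males, circles for females and a black line at each group's mean. CD and FD values overlap in every gene, from Hist3h2a with 19.6 CPM on average to Hist1h4i with 0.691.

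The H4 and H3 genes had lower counts and wider intervals. Hist2h4 had 1.78 ± 0.452 CPM in CD mice (SD, n = 6) and 1.9 ± 0.405 in FD mice (SD, n = 5). Hist2h3c2, the one H3 gene, had 1.07 ± 0.403 and 1.08 ± 0.104 CPM, and 63.5% of its windows were shared with other histone genes, so that its counts are uncertain. Hist1h2ac had 1.07 ± 0.187 and 1.04 ± 0.274 CPM, and the H4 gene Hist1h4i had 0.747 ± 0.0788 and 0.624 ± 0.227. The 95% interval of the fold reached from 0.63 to 1.23 for Hist1h4i and from 0.787 to 1.4 for Hist2h4.

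Among the 15 genes with fewer than 100 counts, the log2 differences ran from -1.45 to 0.95 with SEs from 0.399 to 0.936. Hist1h2bg had 0.356 ± 0.152 CPM in CD mice and 0.262 ± 0.147 in FD mice. The smallest unadjusted p-values of the 25 genes were all in this range of counts. Hist1h4c had 3, 3, 2, 1, 0 and 0 counts in CD mice and 1, 1, 0, 0 and 0 in FD mice, with an unadjusted p of 0.125 in edgeR's test across all genes. Hist1h4h had 1 to 3 counts in CD mice and 0 to 7 in FD mice, and Hist1h1e had 3 to 20 and 2 to 10. Hist1h4k had 0 to 4 counts in CD mice and 0 to 5 in FD mice, and Hist2h2ab had 1 to 4 and 0 to 2. The unadjusted p-values from edgeR were 0.202 for Hist1h4h, 0.204 for Hist1h1e, 0.217 for Hist1h4k and 0.227 for Hist2h2ab. The 95% intervals of all 5 genes included a 2-fold difference in 1 direction, so that such a difference in that direction was not excluded. The remaining genes, Hist1h4j, Hist1h2ba, Hist2h2ac, Hist1h1d, Hist1h2ae, Hist1h2ad, Hist1h2bb, Hist4h4 and Hist1h1a, had 10 to 46 counts each and log2 differences from -0.81 to 0.95.

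**Figure D3:**
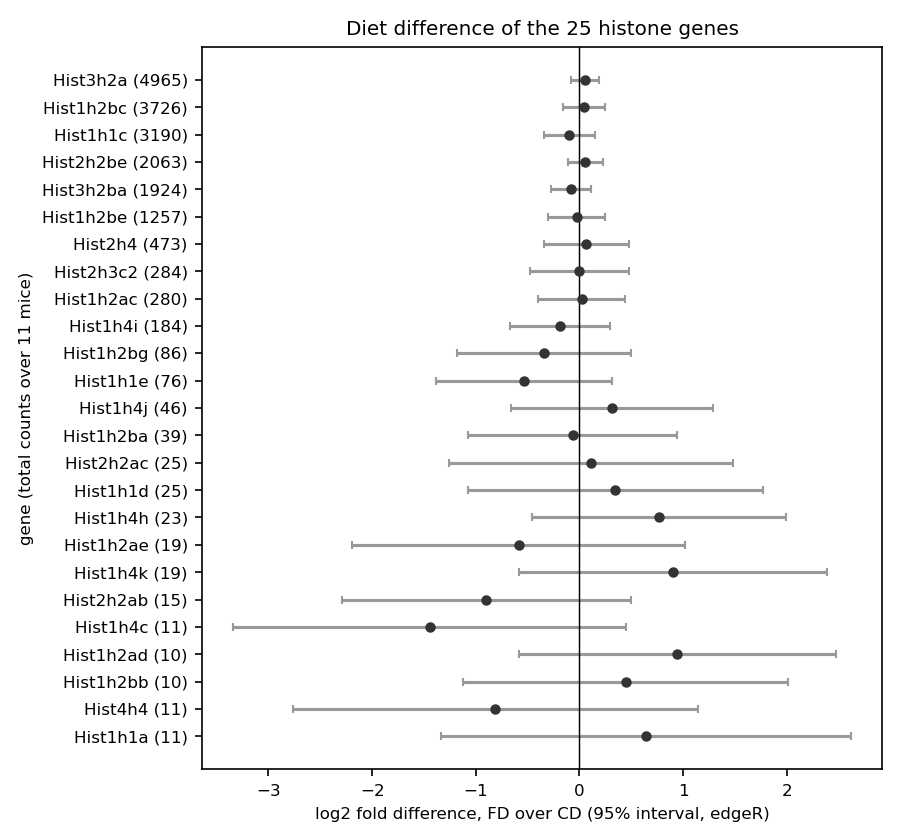
Log2 fold difference of FD over CD with its 95% interval from edgeR for the 25 histone genes, ordered by mean level, with total counts in parentheses. Every interval includes 0; they are narrow for the 6 genes with over 1000 counts and span at least 1.69 log2 units for the 15 genes with fewer than 100.

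The summed level of the 25 genes was close in both groups. It was 73.3 ± 5.2 CPM in CD mice (SD, n = 6), from 65.6 to 79.6 with a median of 72.3. In FD mice the sum was 74.5, 72.4 and 76.7 CPM in the females and 70.5 and 71.3 in the males, all within the CD range, with a mean of 73.1 ± 2.53. The difference of the means, FD minus CD, was -0.242 CPM, a ratio of 0.997. By histone the ratio of the means was 0.927 for H1, 1.03 for H2A, 1.01 for H3 and 1.01 for H4, and for H2B the means were 35.5 ± 3.33 and 35.6 ± 1.28 CPM. In H1 the difference of -0.958 CPM was smaller than the SD of 2.04 among CD mice, and nearly all H1 counts were on Hist1h1c. In bulk tissue, fewer cells of a type and less RNA per cell cannot be told apart.

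**Figure D4:**
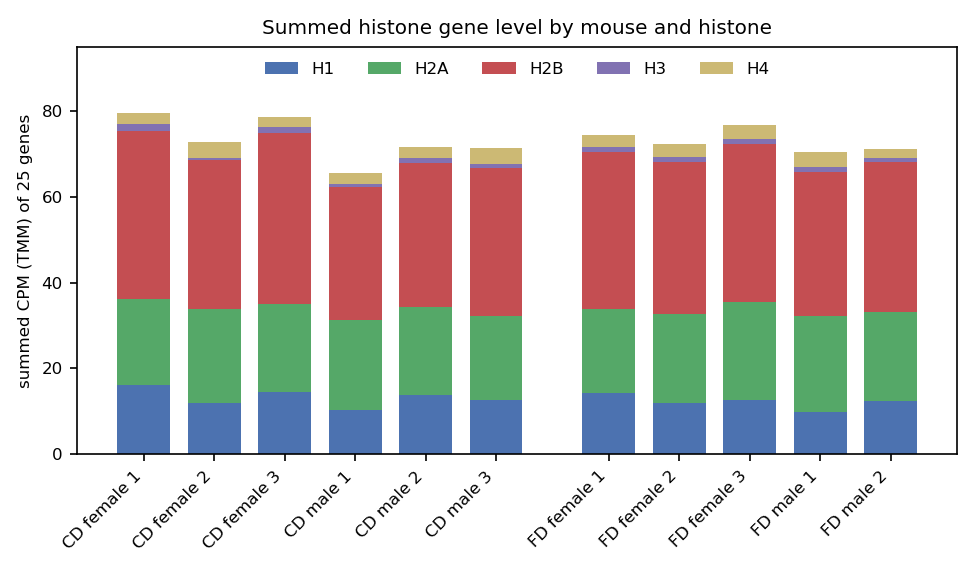
Summed CPM (TMM-normalised) of the 25 histone genes in each mouse, with bars split by histone. The sums of FD mice, 70.5 to 76.7, lie within the 65.6 to 79.6 of CD mice, and in both groups H2B makes up the largest share.

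The other genes of the pathway were taken from lists of genes outside the clusters. In the diet comparison 0 genes passed the adjusted p of 0.1 in any of the 10 lists. Of the replication-independent histone genes, which are expressed outside S phase, 2 of 11 tested had a log2 above 0 and 9 below, with a median of -0.05 and 0 of 11 at an unadjusted p under 0.05. H3f3a, which encodes the variant H3.3, had 11.3 ± 0.661 CPM in CD mice (SD, n = 6) and 10.7 ± 1.08 in FD mice (SD, n = 5). H2afz had 3.59 ± 0.511 and 3.32 ± 0.229 CPM, and H2afx, whose product is phosphorylated at DNA breaks, had 12.8 ± 1.25 and 11.96 ± 1.74.

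Of 32 genes for processing and decay of histone mRNA, 12 had a log2 above 0 and 20 below, with a median of -0.02 and 0 at an unadjusted p under 0.05. Slbp, which encodes the protein that binds the stem-loop, had 14.4 ± 1.24 CPM in CD mice and 14.6 ± 1.31 in FD mice. Npat, a coactivator of histone gene transcription, had 35.2 ± 3.89 and 35.4 ± 2.01 CPM. The smallest p-values of this list belonged to Coil, with 22.1 ± 1.18 and 20.5 ± 0.977 CPM, Upf1 with 65.6 ± 1.8 and 61.6 ± 4.86, and Cpsf3, the nuclease subunit that cuts the pre-mRNA, with 47.6 ± 2.56 and 45.5 ± 0.858. None of them passed (edgeR, adjusted p = 1.0 for each).

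Of 30 histone chaperone genes, 13 had a log2 above 0 and 17 below, with a median of -0.002. Daxx, Asf1b and Nasp had the smallest p-values, with Nasp at 20.6 ± 1.48 CPM in CD mice and 21.6 ± 1.37 in FD mice, Daxx at 26.0 ± 1.89 and 24.5 ± 1.29, and Asf1b at 0.805 ± 0.167 and 0.638 ± 0.222. Of 36 genes of S phase and proliferation, 21 had a log2 above 0 and 15 below, with a median of 0.01. Mki67, a marker of cycling cells, had 2.9 ± 0.476 CPM in CD mice and 2.92 ± 0.712 in FD mice, and Top2a had 1.55 ± 0.503 and 1.81 ± 0.253. Prim1, a primase subunit, had 5.26 ± 0.497 and 5.94 ± 0.338 CPM, and Pola1 had 7.77 ± 0.328 and 7.15 ± 0.397. The remaining lists were markers of the cells a hippocampal sample can hold. Unadjusted p-values under 0.05 in edgeR were found for 2.59% of all genes. They were found for 1 of 10 neuroblast genes, Eomes with a log2 of 0.81 from 107 counts. For choroid plexus it was 1 of 12 genes, Ttr with a log2 of -1.19. The counts were 0 of 10 for granule and pyramidal neurons, 0 of 6 for oligodendrocyte precursors, 0 of 8 for microglia and 0 of 5 for blood. The log2 was above 0 in 5 and below in 5 of the neuroblast genes, and above in 3 and below in 9 of choroid plexus. It was above 0 in 2 of 10, 3 of 6, 3 of 8 and 5 of 5 genes of the other lists, in the order given. The tissue's own markers were high, with 145 CPM for Prox1 of granule cells and 1415 for Slc17a7 of glutamatergic neurons. The summed choroid plexus markers ranged from 40.1 to 97.8 CPM in CD mice and from 35.1 to 50.2 in FD mice.

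Sex was compared with diet as a covariate. Of the 25 histone genes, 0 passed an adjusted p of 0.1 (edgeR), where 1257 genes or 6.11% of all genes passed. At an unadjusted p under 0.05 there were 3 of 25, all lower in males, against 10.3% of all genes in that direction and 20.3% in either. The log2 of males over females was below 0 in 18 of the 25 and in 50.9% of all genes, with a median of -0.20 for the 25 genes and -0.004 for all genes. The values of males and females overlapped in each of the 25 genes and were apart in 1.78% of all genes. The count over all genes depended on single mice, and fell to 18 without CD male 1 and rose to 3244 without CD female 2.

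The 3 genes were Hist1h2bc, Hist3h2ba and Hist1h1c. Hist1h2bc had 11.9, 13.3 and 14.2 CPM in CD males and 12.8 and 15.1 in FD males, and in the 6 females a lowest value of 12.6, a median of 15.5 and a highest of 17.3. Hist1h2bc differed by a log2 of -0.20 (SE 0.0837, edgeR adjusted p = 0.181). Hist3h2ba had 7.09, 7.25 and 7.07 CPM in CD males and 7.14 and 6.36 in FD males, and 6.85, 7.92 and 8.79 as lowest, median and highest value in females. Of the 6 females, 1 lay within the male range and 5 above it. For Hist3h2ba the log2 was -0.19 (SE 0.081, adjusted p = 0.191 in edgeR), and for Hist1h1c -0.24 (SE 0.101, adjusted p = 0.193). Without CD female 2, Hist1h2bc (edgeR adjusted p = 0.0491) and Hist1h1c (0.0635) passed the threshold, in a fit where 3244 of all genes passed. Hist2h4 lay the other way, with 2.02 ± 0.485 CPM in males (SD, n = 5) and 1.69 ± 0.31 in females (SD, n = 6) and an edgeR adjusted p of 0.278.

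The summed level of the 25 genes was 65.6 to 71.8 CPM in the 5 males and 72.4 to 79.6 in the 6 females, so that the sexes did not overlap in this sum. They overlapped without Hist3h2a, where males reached 52.9 and females began at 52.6. Over the genes with at least 100 counts they also overlapped, where males reached 70.1 and females began at 70.06. They stayed apart over the 22 genes with most windows in no other gene, where males reached 70.6 and females began at 71.1. In the Hist1 cluster of 17 genes they were also apart, where males reached 34.5 and females began at 34.8. The sexes overlapped in the sums of the Hist2 and Hist3 clusters, in Hist4h4 and in that of each histone. By histone the sum was 33.6 ± 1.46 CPM in males and 37.1 ± 1.98 in females for H2B, 11.8 ± 1.67 and 13.5 ± 1.68 for H1, and 20.8 ± 0.886 and 20.99 ± 1.23 for H2A. The sum was chosen for description after these values were seen. The replication-independent histone genes had a summed level of 336 to 354 CPM in males and 354 to 405 in females, and 10 of 11 had a log2 below 0, with H1fx at -0.63 and H2afj at -0.27 past the threshold (edgeR, adjusted p = 0.0715 and 0.0883). The other lists of the pathway were more mixed. Of the processing and decay genes 17 of 32 were above 0, and 3 passed above 0 and 1 below. Npat was among those above (log2 0.20, edgeR adjusted p = 0.074). Among chaperone genes 16 of 30 were above 0, and 4 passed above 0 and 0 below. In the S phase and proliferation list 21 of 36 were below 0, and 1 passed, below 0. Markers of several other cells lay mostly lower in males. Of the oligodendrocyte precursor markers 5 of 6 were below 0 and 3 passed the threshold, with a summed level of 230 to 251 CPM in males and 236 to 280 in females. The other, Pdgfra, lay above 0 (log2 0.14, edgeR adjusted p = 0.141). Of the microglia markers 7 of 8 were below 0 and 1 passed (295 to 334 and 313 to 344 CPM), and of the neuroblast markers 9 of 10 were below 0 and 1 passed (262 to 325 and 299 to 380 CPM). All 5 blood markers were below 0 and none passed (23.2 to 34.6 and 11.6 to 55.3 CPM). Of the granule and pyramidal neuron markers 8 of 10 were below 0 and none passed (2179 to 2460 and 2346 to 2714 CPM). Of the choroid plexus markers 7 of 12 were below 0 and none passed (39.8 to 68.5 and 35.1 to 97.8 CPM). None of these markers was at 0 in every mouse, and their part in the histone levels was not tested.

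The shares of reads set aside in counting were compared between the sexes. The no-feature share, of reads outside annotated genes, was 10.2% ± 0.781 in males (SD, n = 5) and 8.79% ± 1.2 in females (SD, n = 6), with p = 0.0628 in a two-sided exact permutation test and ranges that overlapped. The share of reads that were ambiguous between genes was 1.4% ± 0.0212 in males and 1.46% ± 0.0365 in females (exact permutation p = 0.0195), and the share not aligned to a single place was 14.1% ± 0.325 and 14.9% ± 0.815 (exact permutation p = 0.0823). Over the 4 library measures compared between the sexes, the Benjamini-Hochberg adjusted p-values of these exact permutation tests were 0.0779 for the ambiguous share and 0.11 for the other two. Between CD and FD mice it was 9.23% ± 1.34 and 9.64% ± 1.16 (exact permutation p = 0.593). In a fit with diet and this share, 3784 genes or 18.4% of all genes passed the adjusted p of 0.1, and 0 of the 25 histone genes did. At an unadjusted p under 0.05 there were 1 of 25 and 27.1% of all genes. The smallest p of the 25 belonged to Hist2h4, with a log2 of 0.18 per percentage point (SE 0.0724, edgeR adjusted p = 0.111). Hist1h1c had -0.09 (SE 0.0425), Hist1h2bc -0.07 (SE 0.0366) and Hist3h2ba -0.07 (SE 0.0349) per percentage point, while Hist3h2a had 0.0035 (SE 0.0263). With the share as a further covariate of the sex comparison, 9 of all genes and 0 of the 25 passed, and 2 of the 25 had an unadjusted p under 0.05, Hist1h1e and Hist1h4j, both lower in males. With sex and diet as covariates of the share, 639 of all genes and 0 of the 25 passed. The part of these shares in the histone levels was not tested beyond these fits.

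**Figure D5:**
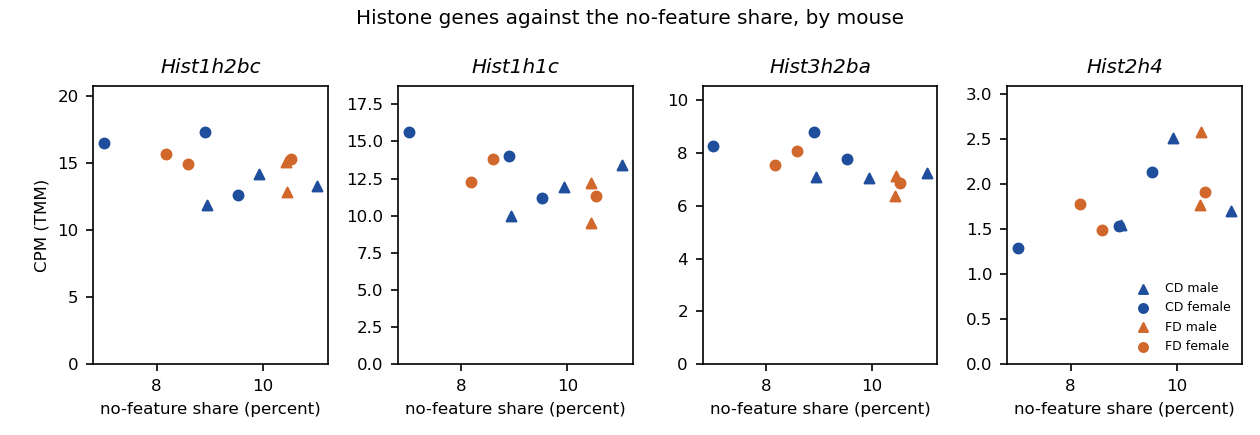
CPM (TMM-normalised, linear axis from 0) of Hist1h2bc, Hist1h1c, Hist3h2ba and Hist2h4 in each mouse against the percentage of reads outside annotated genes, with CD in blue, FD in orange, triangles for males and circles for females. The ranges of the sexes overlap, at 8.95% to 11.03% in males and 7.01% to 10.53% in females.

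The diet difference was also compared between the sexes. In the fit with an interaction of diet and sex, 0 of all genes and 0 of the 25 passed the adjusted p of 0.1 with edgeR, and at an unadjusted p under 0.05 there were 391 genes or 1.9% of all genes and 2 of the 25. Hist2h2ac had 1, 2 and 2 counts in CD males and 5 and 3 in FD males, and 4, 3 and 2 in CD females and 2, 0 and 1 in FD females. Its interaction was a log2 of 3.72 (SE 1.08, edgeR unadjusted p = 0.00311), from 25 counts in all. Hist1h2be had 4.08, 3.87 and 4.88 CPM in CD males and 5.47 and 4.74 in FD males, and 5.59, 6.91 and 4.99 in CD females and 4.62, 4.95 and 4.72 in FD females. FD females lay below all CD females, and the FD males overlapped the CD males. Its interaction was a log2 of 0.53 (SE 0.223, edgeR unadjusted p = 0.0298 and adjusted p = 1.0). Hist1h1a had the third smallest p, 0.0733 in the same edgeR fit, from 11 counts.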

How the data were processed

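Hippocampal RNA of 11 F1 mice was sequenced with single-end 50-base reads. The authors trimmed the reads, aligned them to mm10 with STAR and counted reads with 1 alignment per gene with featureCounts, and they deposited raw counts per gene for each mouse. Strand, poly(A) selection and annotation release are not given in the sources used here. Gene counts per mouse ranged from 11737554 to 44447006, 3 counts corresponded to 0.0675 to 0.256 CPM, and 13.7% to 16.0% of the listed reads were set aside as not aligning to 1 place. This floor covers counting error only.

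Gene IDs were matched to GENCODE M21, also on GRCm38, in which 95.1% of the IDs were found. Genes with at least 10 counts in total (20589) were tested with edgeR 4.0.16 in R 4.3.3, by the quasi-likelihood test with TMM normalisation and Benjamini-Hochberg adjustment over all genes, and genes with an adjusted p under 0.1, the study's threshold, were called. The diet fit had no covariate, the sex fit had diet, and a fit with both had their interaction. A further fit had diet and the centred no-feature share. The 95% intervals use the SE and degrees of freedom of each fit. DESeq2 1.42.0 was an alternative, with other count minimums, size factors, covariates, fits within a sex and fits without 1 mouse. The scripts were tested on simulated data in which only genes with a high mean count were changed. That check does not cover histone genes with few counts. Windows, stem-loops and promoters were read from GENCODE transcripts and RefSeq tables with Python 3.11.15.

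Mice of the same sex and replicate number were paired for a block. The deviations of the 5 pairs from their group means correlated at 0.0743 to 0.232 and 4 of 5 were over 0.1. Mice of these pairs also share their sex, and same-sex mice of different numbers correlated at -0.0521 to 0.257. These values do not settle whether the numbers pair the mice, and the main fits had no block. The members and lists were chosen with earlier results of these data known. Genes named in the text were the 12 with the highest mean CPM, those with the 5 smallest p-values for diet and 3 each for sex and interaction, and in each pathway list the 3 smallest p-values for diet beside Slbp, Npat, Mki67 and Top2a. Other genes were named after their values were seen.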

Additional observations from a re-analysis of the deposited data

Results flagged for a closer look

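In the FD group, Hist1h2bc had 12.8 CPM in FD male 1, while the other 4 mice had 15.0 to 15.7, and the gap was 0.745 of the group's whole range, above Dixon's 95% critical value for 5 values. This was 1 of 36 groups of values checked, and about 1 in 20 is flagged by chance.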

How the results depend on the processing

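In the diet comparison 0 of the histone genes passed under each of the 11 alternatives and without each mouse in turn, and their smallest adjusted p over these was 0.808, with the replicate block of 10 mice. With that block 22 of the genes were tested, 0 passed and 23 of all genes passed in place of 14; 3 of 5 FD mice correlated best with the CD mouse of their number. Over all genes the number called for diet was 1 with at least 10 counts in every mouse, 8 with filterByExpr, 1 in females only, 2 in males only, 22 with the no-feature share as a covariate, and 3 to 12 with a mouse left out. At an unadjusted p under 0.05 in edgeR there was 1 of 19 histone genes in females only and 1 of 16 in males only, Hist2h2ac both times, lower in FD females and higher in FD males. Its unadjusted edgeR p-values were 0.0498 and 0.0263. For sex the number of histone genes called was 0 to 2 with a mouse left out. It was 2 without CD female 2, where 3244 of all genes passed. Without the diet covariate 37 of all genes passed for sex. For the no-feature share the number of histone genes called was 1 (Hist2h4) without a covariate and 0 to 1 with a mouse left out. These were Hist1h1c without CD male 1 and Hist2h4 without CD male 2 or FD male 2. In these no-feature fits 4305, 4484, 2968 and 3215 of all genes passed, in the order given. The difference of the summed level was -0.935 CPM without Hist3h2a, -1.78 to 1.02 with a mouse left out, and, in alternatives chosen after seeing the data, -0.352 over genes with most windows in no other gene and -0.0404 over genes with at least 100 counts. The search for windows in the genome was not run.

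Single genes with small diet differences changed sign, with none past the threshold. In females only the log2 was -0.0277 for Hist1h2bc, 0.53 for Hist1h2bg, -1.77 for Hist2h2ac, 0.0639 for H2afz, -0.0135 for Slbp and 0.10 for Asf1b. In males only it was 0.26 for Hist1h2be, 0.19 for Hist2h3c2, -0.39 for Hist1h2ac, -0.035 for Npat and -0.0161 for Mki67. With the no-feature share it was 0.0596 for Hist2h3c2, -0.0259 for Npat and -0.0298 for Mki67. With the block it was -0.0902 for Hist2h2ac and -0.0031 for Mki67, and with sex as a covariate -0.0473 for Hist1h2ac. Hist2h3c2 had 0.000995 with DESeq2 and a prior, 0.00701 with DESeq2 without one, 0.0047 with RLE size factors, 0.0112 with filterByExpr and 0.00048 with no count minimum. With a mouse left out, the log2 ranged from -0.00563 to 0.10 for Hist1h2bc, -0.0834 to 0.057 for Hist1h2be, -0.0746 to 0.24 for Hist2h4, -0.11 to 0.19 for Hist2h3c2, -0.16 to 0.11 for Hist1h2ac, -0.41 to 0.37 for Hist2h2ac, -0.0316 to 0.0453 for Slbp, -0.0412 to 0.0409 for Npat and -0.10 to 0.10 for Mki67. The cause was not tested.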
